A study of Mus musculus with 4 samples.

Results

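The genes described here are 10 core genes of N6-methyladenosine (m6A), a methyl mark on adenosines of mRNA and other transcripts: the writers Mettl3, Mettl14, Wtap and Zc3h13, the readers Ythdc1, Ythdf1, Ythdf2 and Ythdf3, and the erasers Alkbh5 and Fto. They were taken by name from the gene table of a genome-wide CRISPR-Cas9 knockout screen, where all 10 were found among 20380 genes. The screen was made in the mouse embryonic stem cell line E14, grown in serum and leukemia inhibitory factor, in which a tdTomato reporter follows MERVL. This endogenous retrovirus is transcribed in 2-cell embryos, and a small share of cultured stem cells that resemble them switches it on as well. All cells carried this reporter and were transduced with a pooled lentiviral library of 130209 guides against 20611 genes. Transduction took 24 h with 4 ug/mL polybrene, which helps virus enter, and the cells were selected with 2 ug/mL puromycin for 48 h. At day 5, about 500000 reporter-positive cells were sorted. The groups are MERVL-positive cells and total cells, with 2 libraries each, which the titles number as repeats of sequencing.

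Writers place the mark while the transcript is being made. Mettl3 is the catalytic subunit, Mettl14 its partner that helps hold the RNA, and Wtap and Zc3h13 belong to the regulatory part that brings the pair to its place in the nucleus. YTH-domain proteins read the mark, Ythdc1 in the nucleus and the Ythdf proteins in the cytoplasm, where they affect decay and translation, and the demethylases Alkbh5 and Fto can remove it. In mouse embryonic stem cells the mark is known to limit the lifetime of transcripts of pluripotency genes, and loss of Mettl3 or Ythdc1 has been reported to release endogenous retroviruses and, for Ythdc1, genes of the 2-cell program. The comparison of libraries asks which knockouts are more or less frequent among MERVL-positive cells than among total cells.

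The authors' deposited table gives 1 log2 fold change per gene between the groups, with a p and a false discovery rate (FDR) for each direction and no value per library. No gene here therefore has a spread between libraries, the depth per library is unknown, and no value of 1 gene can be separated from that of its neighbour in the order by an error of its own. The scale used here is the spread over all genes, whose log2 fold changes had a median of -0.021. Their central 50% ran from -0.33 to 0.26 and their central 95% from -1.09 to 0.81. Among the 16270 genes with 6 guides, the number each m6A gene has, the central 95% was narrower, from -1.05 to 0.77. Non-targeting guides served only as an alternative zero point, and their spread was not used as a scale. The sources used here do not name the numerator. A positive value is read as enrichment among MERVL-positive cells. This reading is not settled. It rests on the study's title, in which Ints7 deficiency activates MERVL, and on the rank of Ints7 in the authors' deposited table, 157 of 22510 for positive and 18586 for negative change. That basis is weak, since the authors' deposited table gives Ints7 a log2 fold change of 0.14, 3 of 6 guides up and an FDR of 0.931 for positive change. Setdb1, which silences endogenous retroviruses, and its cofactor Trim28 ranked nearer the top for negative change in the authors' deposited table. Their ranks were 4201 and 12105 for negative and 21313 and 15785 for positive change. For negative change their p-values were 0.196 and 0.564, both at an FDR of 0.999, according to the authors' deposited table. The authors' deposited table gives Ints7 a p of 0.00714 for positive change. Read the other way, each direction below turns. With 500000 sorted cells for 130209 guides, the sort held on average 3.84 cells per guide and 23.0 cells per gene of 6 guides. At this coverage a value near 0 leaves an effect of the knockout possible, and a value far from 0 need not reflect one.

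No m6A gene passed an FDR of 0.05 in either direction according to the authors' deposited table. Over all genes, 0% passed for enrichment and 0.00491%, a single gene, for depletion. The lowest FDR among the 10 genes was 0.985, for enrichment of Zc3h13, according to the authors' deposited table. By unadjusted p, 1 of the 10 was under 0.05 for enrichment, against 5.02% of all genes, and 0 of the 10 for depletion, against 5.07% of all genes, according to the authors' deposited table. Log2 fold changes were above 0 in 3 of 10, where 48% of all genes lay above 0, and the value of 1 of these 3, Ythdf2, was -0.0077 when the median of the non-targeting guides was taken as zero. The median of the 10 genes was -0.12 beside -0.021 over all genes, their mean was -0.18 beside -0.053, and their standard deviation of 0.45 lay near the 0.48 of all genes. Their values ran from -0.94 for Wtap to 0.65 for Zc3h13, all inside the central 95% of all genes.

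**Figure D1:**
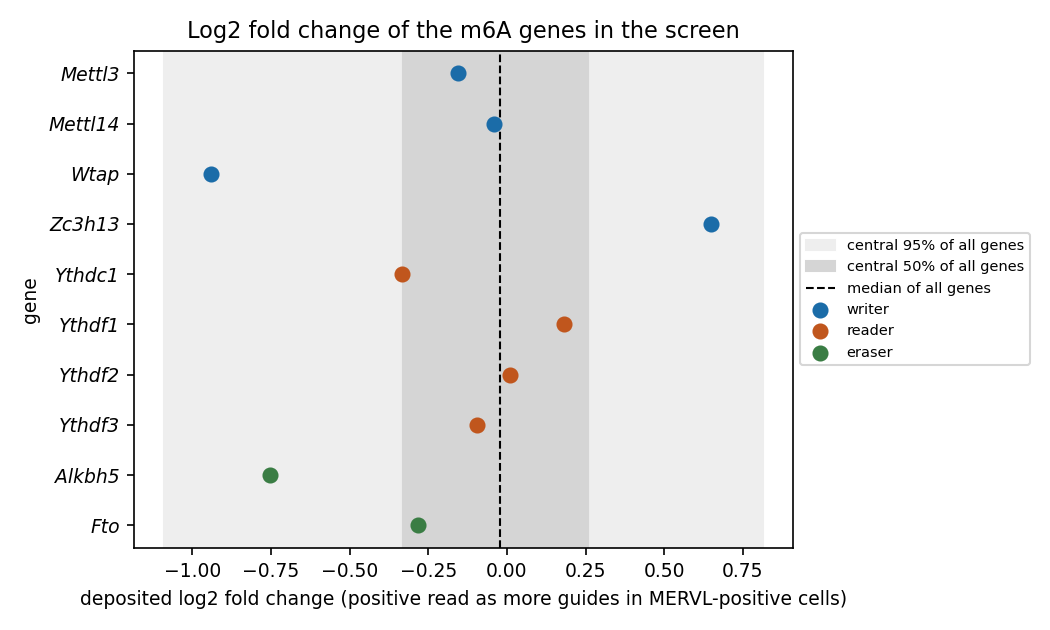
Deposited log2 fold change (x axis) of each of the 10 m6A genes (y axis), coloured by role, over the central 50% and 95% of all 20380 genes and their median (dashed line). All 10 genes lie inside the central 95%, from -1.09 to 0.81, and Wtap, Alkbh5 and Zc3h13 lie well outside the central 50%, with Ythdc1 at its edge.

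The writers held both ends of the range. Zc3h13, a zinc finger protein known to keep the regulatory subunits of the writer in the nucleus of mouse embryonic stem cells, had the highest value of the 10, and Wtap, the adaptor that binds the catalytic pair, the lowest. The catalytic pair itself lay between them, close to the median of all genes.

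Zc3h13 lies on chromosome 14 from 75284306 to 75344433 in GRCm38.p6, which has the coordinates of mm10. Of its 6 guides, 5 were up and 1 was down according to the authors' deposited table, where up and down mean past a loose guide threshold that 37.4% and 38.0% of guides of all genes pass. Its log2 fold change was 0.65, a ratio of 1.57, above that of 94.6% of genes, according to the authors' deposited table. Its enrichment p of 0.0390, at rank 825 of 22510, went with an FDR of 0.985 according to the authors' deposited table. Among the 16270 genes with 6 guides, 2.91% had 5 or more guides up. Zc3h13 was thus the only one of the 10 past an unadjusted p of 0.05, and 5.02% of all genes passed it too. With 1 guide down, its depletion p was 0.355 according to the authors' deposited table.

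Wtap, on chromosome 17 from 12966799 to 12992543, had 4 guides down and 2 up according to the authors' deposited table. Its log2 fold change of -0.94, a ratio of 0.521, was higher than that of 4.08% of genes according to the authors' deposited table. The authors' deposited table gives it a depletion p of 0.244 and an enrichment p of 0.579. Neither p was low beside this log2 fold change, and the 6 guides lay on both sides, with none between the thresholds. In 4.52% of genes with 6 guides the same split of 4 down and 2 up was found.

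Mettl3, the methyltransferase itself, lies on chromosome 14 from 52294841 to 52308741. Its log2 fold change was -0.15, for a ratio of 0.899, with 1 guide up, 2 down and 3 past neither threshold according to the authors' deposited table. The authors' deposited table lists its p as 0.860 for enrichment and 0.692 for depletion. Mettl14 lies on chromosome 3 from 123368295 to 123385990, and its log2 fold change was -0.040, with 2 guides up, 1 down and 3 past neither threshold according to the authors' deposited table. It had the second lowest enrichment p of the 10, 0.193, beside a depletion p of 0.940 according to the authors' deposited table. The sign of its log2 fold change and its smaller p thus point different ways, as they did for 2 of the 10 genes, Mettl14 and Ythdf2, and for 19.3% of all genes. Taken as a pair, the subunits that form the catalytic core had 3 guides up and 3 down according to the authors' deposited table.

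The other 4 subunits of the writer were looked up as well. Cbll1, a ubiquitin ligase of the regulatory part also called Hakai, had a value of -0.81 on the log2 scale, with 3 of its 6 guides down and 2 up according to the authors' deposited table. Rbm15b, which with its paralog Rbm15 guides the writer to RNA, had -0.55 with 4 guides down and 1 up according to the authors' deposited table. For Rbm15 the authors' deposited table holds -0.011, with 2 guides up and 2 down. The largest subunit, the scaffold Virma, listed as 1110037F02Rik, had 0.25 with 2 of 5 guides up and none down according to the authors' deposited table. Of these 4, Cbll1 had the lowest depletion p, 0.145, according to the authors' deposited table. Of all 8 subunits, 2 lay above 0 and 6 below, where 48% of all genes lay above, with a median of -0.097 and a standard deviation of 0.54, and 36.2% of their 47 guides were up and 36.2% down. Over all genes the standard deviation was 0.48.

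The 4 readers were between -0.33 and 0.18, a distance from 0 that 55.6% of all genes did not exceed, and their lowest p in either direction was 0.367 according to the authors' deposited table. Ythdc1, the nuclear reader that binds chromatin-associated transcripts of retrotransposons, lies on chromosome 5 from 86803980 to 86836659. Its log2 fold change was -0.33, a ratio of 0.794, with 1 guide up and 3 down according to the authors' deposited table. The enrichment p of Ythdc1 was 0.678 and its depletion p 0.367 according to the authors' deposited table, at ranks 14794 and 7815 of 22510.

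The cytoplasmic readers are paralogs that share the YTH domain and bind many of the same transcripts. Ythdf1, on chromosome 2 from 180904377 to 180920936, had the highest value, 0.18, with 3 guides up and 2 down according to the authors' deposited table. Ythdf2, which recruits the CCR4-NOT deadenylase to marked mRNA, lies on chromosome 4 from 132184916 to 132212256 and had 0.011 with 2 guides up and 2 down according to the authors' deposited table. Ythdf3, on chromosome 3 from 16183148 to 16217037, had -0.095 with 3 guides up and 3 down according to the authors' deposited table. Their enrichment p-values were 0.477, 0.738 and 0.540, and their depletion p-values 0.804, 0.467 and 0.522, in that order, according to the authors' deposited table. The guides of each of these genes were divided evenly or nearly so, and the paralogs were knocked out 1 at a time, so the table holds no value for loss of several together. Whether a guide matches more than 1 paralog was not checked, since guide sequences were not used here. The fifth YTH gene, Ythdc2, a helicase best known from germ cells, had -0.19 with no guide up and 2 down according to the authors' deposited table.

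The erasers were both below 0. Alkbh5, the demethylase that acts on mRNA in the nucleus, lies on chromosome 11 from 60537683 to 60558512, and its log2 fold change was -0.75 (ratio 0.594), with 4 guides down and none up according to the authors' deposited table. For depletion, its p of 0.180 was the lowest of the 10 genes and came with an FDR of 0.999 according to the authors' deposited table. Fto, on chromosome 8 from 91313367 to 91668433, also acts on the cap-adjacent mark m6Am, and its log2 fold change was -0.28 (ratio 0.821), with 2 guides down, 4 past neither threshold and none up according to the authors' deposited table. The authors' deposited table gives Fto a depletion p of 0.721. Both erasers thus lacked a guide up, as did 5.91% of the genes with 6 guides, and no other of the 10 genes did. At 4 or more guides down with none up, as in Alkbh5, there were 3.36% of those genes. The p-values of both stood highest of the 10 for enrichment, at 0.994 and 0.973, according to the authors' deposited table.

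**Figure D2:**
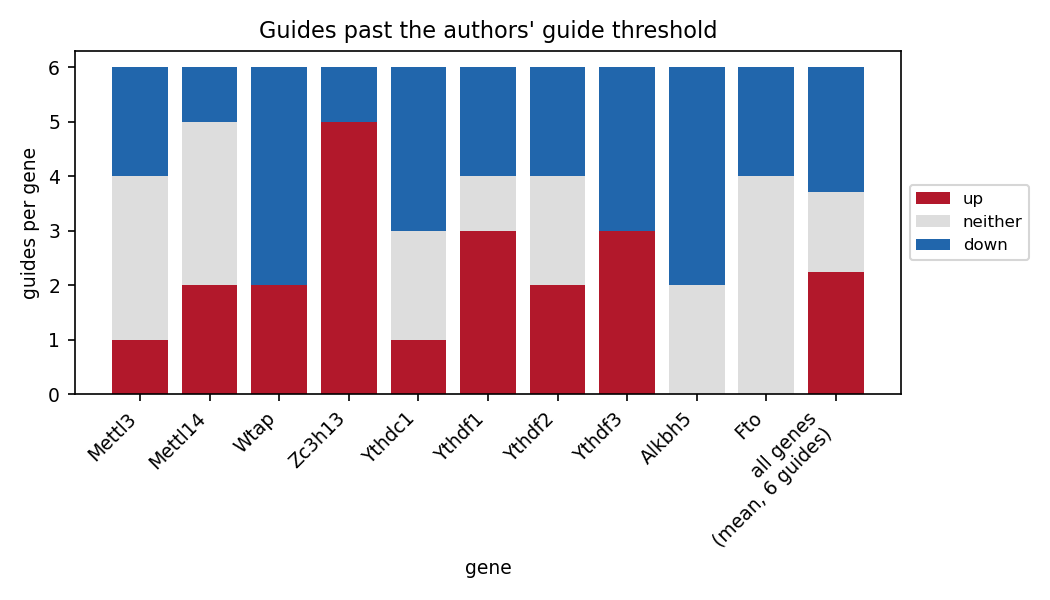
Number of guides (y axis) of each m6A gene (x axis) that were up, down or past neither guide threshold in the authors' deposited table, with the mean of all genes with 6 guides at the right. Zc3h13 has 5 guides up, Wtap and Alkbh5 have 4 down each, and Alkbh5 and Fto have none up.

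Summed over the 10 genes, 19 of 60 guides were up and 24 were down, or 31.7% and 40%, according to the authors' deposited table, beside 37.4% and 38.0% over all genes. By role, 10 of 24 writer guides were up and 8 down, 9 of 24 reader guides were up and 10 down, and 0 of 12 eraser guides were up and 6 down according to the authors' deposited table. Of the 10 writer guides up, 5 were against Zc3h13. Guides against 1 gene share their target, so these shares are descriptions of the libraries. Every guide was past 1 of the thresholds in 3 of the 10 genes, Wtap, Zc3h13 and Ythdf3, and in 18.1% of genes with 6 guides. In each of these 3 the guides lay on both sides.

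**Figure D3:**
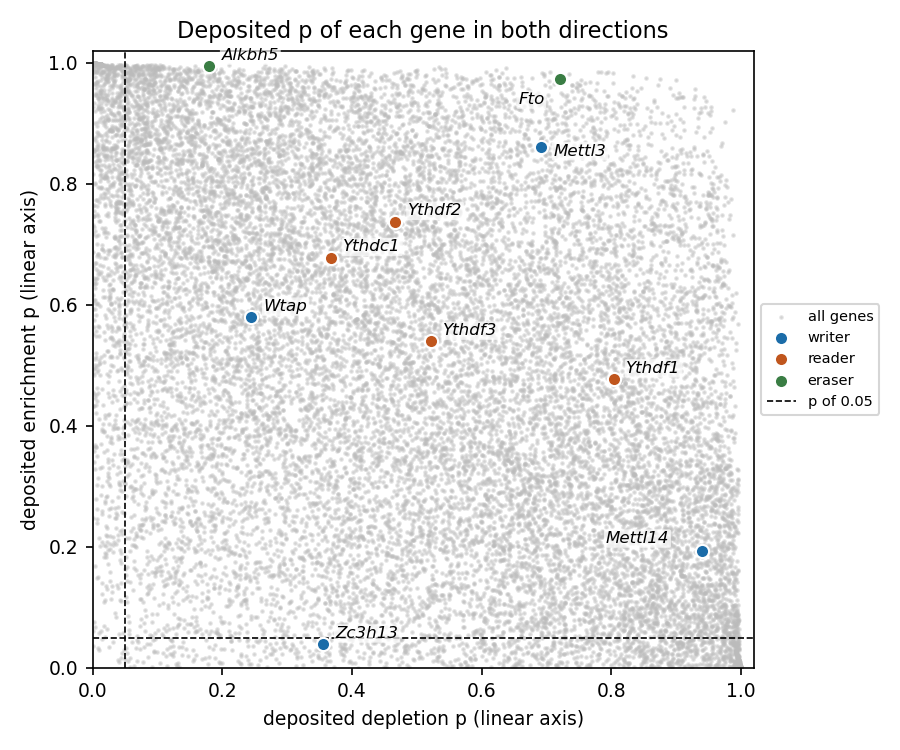
Deposited enrichment p (y axis) against deposited depletion p (x axis), both linear, for all 20380 genes (grey) and the 10 m6A genes, coloured by role, with dashed lines at 0.05. Zc3h13 at 0.039 is the only m6A gene beyond a line, and the rest spread over the plane, Alkbh5 and Fto near its top.

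Beyond these, 20 more genes of the pathway were counted, from the remaining writer subunits and readers to the enzymes that mark other RNAs or make the methyl donor. None of the 20 had an unadjusted p under 0.05 in either direction according to the authors' deposited table, where 5.02% of all genes did for enrichment and 5.07% for depletion, a background at which a count of 0 of 20 is no result about these genes. Above 0 lay 6 and below 0 lay 14, beside 48% above 0 over all genes, with a median of -0.14. Igf2bp2, of the family that stabilises marked mRNA, had the highest value, 0.70, with 4 of 6 guides up and 2 down according to the authors' deposited table. For its paralogs Igf2bp1 and Igf2bp3 the authors' deposited table holds -0.66 and -0.26. Hnrnpa2b1, a nuclear RNA-binding protein, followed at 0.35 according to the authors' deposited table. Prrc2a, a reported reader, had the lowest value, -1.17, with 3 of 4 guides down according to the authors' deposited table, and Cbll1 came next. Mettl16, which marks U6 snRNA and the mRNA of the methyl donor's synthetase, had -0.72 and the synthetase Mat2a itself 0.12 according to the authors' deposited table.

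Partners of the readers were counted the same way. The 13 genes of CCR4-NOT and other decay partners of the cytoplasmic readers had a median of -0.11, with 5 above 0 and 8 below, where 48% of all genes lay above. None of the 13 had an unadjusted p under 0.05 according to the authors' deposited table, beside the same 5.02% and 5.07% of all genes. Cnot10 had the highest value, 0.54, followed by Rida, listed as Hrsp12, at 0.52, and Cnot4 the lowest, -0.54, followed by Cnot9, listed as Rqcd1, at -0.38, according to the authors' deposited table. For Cnot10 the smaller p went against the sign, with 0.0774 for depletion and 0.238 for enrichment according to the authors' deposited table. The scaffold Cnot1, to which Ythdf2 binds, had -0.23 with 3 guides up and 3 down according to the authors' deposited table.

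The 10 nuclear partners of Ythdc1 had the lowest median of the lists, -0.44, with 2 above 0 and 8 below, where 48% of all genes lay above. None of the 10 had an unadjusted p under 0.05 according to the authors' deposited table, beside 5.02% and 5.07% of all genes. The splicing factors Srsf7, Srsf10 and Srsf3 had -1.01, -0.96 and -0.78, and the mRNA export receptor Nxf1 had -0.96, according to the authors' deposited table. Setdb1, the H3K9 methyltransferase that silences endogenous retroviruses, had -0.44 with no guide up and 4 down, while its cofactor Trim28 had -0.039, according to the authors' deposited table. The highest value was that of Zcchc8, the scaffold of the NEXT complex that hands nuclear RNA to the exosome, at 1.03 with 4 guides up and 2 down and an enrichment p of 0.0599 according to the authors' deposited table. The authors' deposited table holds 0.34 for its helicase Mtrex, listed as Skiv2l2, and -0.29 for its RNA-binding subunit Rbm7. Of these partners, 49.2% of guides were down, beside 38.0% over all genes.

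**Figure D4:**
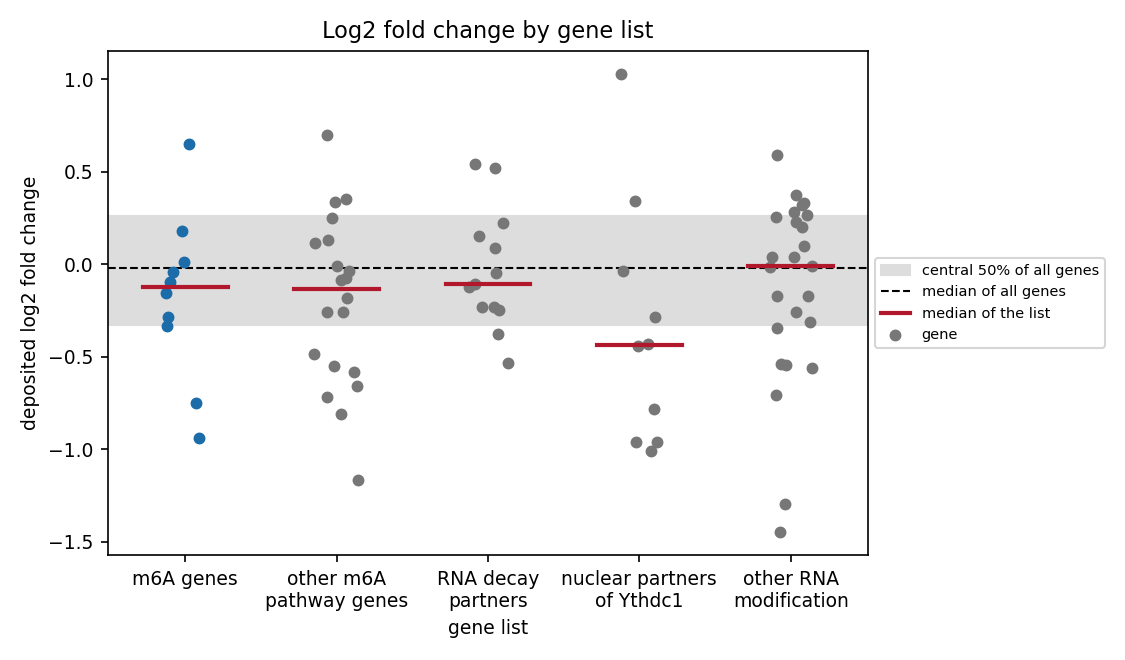
Deposited log2 fold change (y axis) of each gene of the 10 m6A genes and of 4 further lists (x axis), with the median of each list (red line), over the central 50% and the median of all genes (dashed line). List medians run from -0.44 for the nuclear partners of Ythdc1 to -0.012 for enzymes of other RNA modifications, with -0.12 for the m6A genes.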

How the data were processed

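The file analysed is a single gene table of the whole series. MAGeCK and mm10 are named by the submitters' processing notes, and the column names are those of MAGeCK's table of genes. Version, settings, normalization and numerator were not given in the sources used here. Per gene, the authors deposited, per the file headers, a log2 fold change, identical in its 2 columns, and for each direction a score, a p-value, a false discovery rate, a rank and a number of guides past some threshold. These were used as deposited, and no count model was fitted. p-values may rest on technical spread alone, since the titles name sequencing repeats and no separate cultures.

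Computed here, with Python 3.11.15, pandas 2.3.3 and numpy 2.4.6, were counts under a p or false discovery rate of 0.05, medians, shares of guides, and the same over all 20380 genes; 1132 microRNAs and 998 non-targeting guides were left out of these. Positions came from RefSeq (GRCm38.p6). All 10 genes and, of 69 further symbols in 4 lists, 64 matched by symbol and 4 by synonym. The remaining 1, Nsun1, did not match (it is another name of Nop2, which is in the list). Named were all 10 genes, the other writer subunits and Ythdc2 and, in each list, genes under p 0.05 and the 2 highest and 2 lowest values; any other gene named was chosen after its values were seen. The genes and lists were chosen with earlier results of these data known. The alternatives tried were other zero points, thresholds, adjustments and summaries. The adjustment code was tested on simulated data. Guide sequences were not used here.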

Additional observations from a re-analysis of the deposited data

How the results depend on the processing

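The count of the 10 genes past a false discovery rate of 0.05 stayed at 0 in both directions at a threshold of 0.25 and with p-values adjusted over genes alone by the Benjamini-Hochberg method. At an unadjusted p threshold of 0.1 the counts were 1 for enrichment and 0 for depletion, and at 0.01 the enrichment count was 0. Among genes with 6 guides, 5.04% had an enrichment p and 5.17% a depletion p under 0.05. With the median of non-targeting guides (0.019) as zero, the value of Ythdf2 turned from 0.011 to -0.0077, and 2 of 10 genes lay above 0. That zero or the median of all genes turned no other of the 10. The median of the 10 was -0.14 and -0.10 under these, and the mean was -0.18. The means of the 4 further lists had the sign of their medians, but their order changed: enzymes of other RNA modifications went from a median of -0.012 to a mean of -0.14, and decay partners from -0.11 to -0.029, then nearest to 0. Ranking genes by log2 fold change in place of p moved the enrichment rank of Mettl14, Wtap, Ythdf1 and Ythdf2 by over 1.5 times. No paired analysis was possible because the table holds no value per library, and for the same reason no library could be left out. Depth is unknown, and 3.84 sorted cells per guide limit what the table can show.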

Other observations

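Enzymes of other RNA modifications, 25 genes in the table, had a median log2 fold change of -0.012, with 12 above 0 and 13 below. By the authors' deposited table, 1 of the 25 had an unadjusted p under 0.05 for enrichment, against 5.02% of all genes, and 2 for depletion, against 5.07% of all genes. Nop2, which methylates a cytosine of ribosomal RNA and is needed to make the large ribosomal subunit, had the lowest value, -1.45, with 4 of 6 guides down, a depletion p of 0.00459 at rank 99 and an FDR of 0.846 according to the authors' deposited table. Alkbh8, which modifies the wobble position of tRNAs, came next at -1.30 with 5 of 6 guides down and a depletion p of 0.0279 according to the authors' deposited table. For Adarb1, an enzyme that turns adenosine into inosine, the enrichment p was 0.0325 while the log2 fold change was -0.17, with 2 guides up and 2 down, according to the authors' deposited table. Its relative Adar, which keeps cellular double-stranded RNA from being sensed as foreign, had -0.54 with no guide up and 4 of 5 down according to the authors' deposited table. The highest values were those of the pseudouridine synthase Trub1, 0.59, and of Nsun4, a methyltransferase of the mitochondrial ribosome, 0.37, according to the authors' deposited table.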
